A study of Mus musculus with 8 samples.

Results

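The Hox genes encode homeodomain transcription factors and lie in 4 clusters, a to d, on chromosomes 6, 11, 15 and 2 of the mouse. A set of 38 Hox genes was listed by name, 10 in cluster a, 10 in b, 9 in c and 9 in d, and rows of the expression table were taken where the platform annotation gave 1 of these symbols alone. Of the 38, 33 had a row, out of 19505 genes with a row in the whole table. Hoxa7, Hoxa9, Hoxb4, Hoxd3 and Hoxd4 had none and were not analysed here.

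Within a cluster the genes are numbered by paralogue group. Low numbers lie at the end of the cluster that is expressed towards the head of the embryo, and high numbers at the end expressed towards the tail. In the gut this order is kept along its length, so that members of groups 12 and 13 mark its hindmost part: Hoxa13 and Hoxd13 are needed to form the hindgut and anorectal region, and Hoxb13 is known as a marker of distal colon and rectum. Hox proteins bind DNA together with cofactors of the Pbx and Meis families, and Cdx2, a related homeodomain factor, maintains the identity of intestinal epithelium.

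RNA of colon epithelial cells was measured on 8 Affymetrix arrays from mice of the C57BL/6J background, 2 arrays per group. The groups were SMS2 knockout mice given DSS, WT mice given DSS, untreated SMS2 knockout mice and untreated WT mice. SMS2 (gene symbol Sgms2) is a synthase that makes sphingomyelin from ceramide, and DSS (dextran sulfate sodium, 3.5% in the drinking water for 2 days) injures the colon lining and is used to model colitis. The knockout was given as a genotype with no promoter, allele or Cre line named, and the sources used here state neither the age of the mice, nor the part of the colon the cells came from, nor the number of mice behind a replicate.

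Values below are deposited log2 signals, listed as replicate 1 and then replicate 2 of each group. Background, set at the 75th percentile of each array's 5222 negative controls, lay between 6.00 and 6.24. Differences are on the log2 scale with their standard error (n = 2 arrays per group). They come with adjusted p-values from limma, a linear model fitted to all genes, adjusted by the Benjamini-Hochberg method over 13003 genes with a threshold of 0.05. These p-values measure only the spread between these samples, and an exact permutation test of 2 arrays against 2 has no p below 0.333.

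Some properties of the arrays touch every result. Sgms2 measured 7.35 and 6.47 in knockout arrays with DSS, against 11.27 and 10.90 in WT arrays with DSS. In untreated mice it measured 7.30 and 7.33 in knockout arrays, against 10.79 and 10.76 in WT arrays, so all arrays fitted their genotype labels. The 10 epithelial markers averaged between 16.10 and 16.28 in every array. Transcripts of other cells differed between the groups: the mean of 17 fibroblast genes was 11.24 and 10.21 in knockout with DSS, 10.26 and 10.86 in WT with DSS, 9.19 and 8.98 in untreated knockout, and 7.62 and 7.99 in untreated WT. The mean of 9 exocrine pancreas genes was 12.01 in WT DSS replicate 1 and 7.81 in knockout DSS replicate 1, and lay between 6.32 and 6.84 in the other 6 arrays. The 3 Y-linked genes Eif2s3y, Uty and Kdm5d averaged between 8.99 and 9.95 in the 4 arrays with DSS. In the 4 untreated arrays they averaged between 3.75 and 3.90. DSS and the presence of these transcripts, and with it the sex of the mice, therefore cannot be told apart. This holds for every comparison of DSS with untreated below. In a bulk sample, fewer cells of a type and less RNA per cell cannot be told apart either.

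Clusters a, b and d were detected in these cells, and cluster c hardly. In all 8 arrays 14 of the 33 Hox genes lay above background, 5 of the 8 with a row in cluster a, 6 of 9 in cluster b, 0 of 9 in cluster c and 3 of 7 in cluster d. Another 5 were above it in some arrays. These were Hoxa4 in 6 arrays, Hoxd12 in 6, Hoxc9 in 4, Hoxb8 in 3 and Hoxa6 in 1. The remaining 14 were above it in none. Of the 9 cluster c genes, 8 were under background in every array, and the lowest and highest values of that cluster were 2.97 and 6.52. Hoxc9 was its brightest member, at 5.91 and 6.23 in knockout with DSS, 5.86 and 6.43 in WT with DSS, 6.27 and 6.14 in untreated knockout, and 5.98 and 6.52 in untreated WT. The groups overlapped throughout. Hoxc13, the hindmost gene of the cluster, stayed between 3.81 and 4.22, under background in all 8 arrays. A filter on low mean signal left 21 Hox genes to test, 7 of cluster a, 8 of b, 1 of c and 5 of d. Hoxb5 and Hoxd10 passed it although no array put them above background.

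The largest differences lay at the hindmost end of cluster d. Hoxd13, which patterns the anorectal region and the digits, measured 7.78 and 10.17 in knockout with DSS, 11.98 and 12.34 in WT with DSS, 9.21 and 9.30 in untreated knockout, and 9.44 and 8.98 in untreated WT. Both WT arrays with DSS stood above the other 6, which ran from 7.78 to 10.17, and knockout DSS replicate 1 was the lowest of the 8. Hoxd11, which acts in limb, kidney and axial skeleton, measured 6.9999 and 7.95 in knockout with DSS, 9.97 and 9.40 in WT with DSS, 7.87 and 7.04 in untreated knockout, and 7.55 and 7.25 in untreated WT. Again both WT arrays with DSS stood alone at the top.

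Hoxd12 lies between these genes and measured 5.83 and 6.48 in knockout with DSS, 6.63 and 6.52 in WT with DSS, 6.62 and 6.03 in untreated knockout, and 6.55 and 6.50 in untreated WT. It stayed close to background and did not stand out in WT with DSS. Hoxd10, on the other side of Hoxd11, measured 5.60 and 5.78, 5.87 and 6.01, 5.59 and 5.31, and 5.08 and 5.49 in knockout with DSS, WT with DSS, untreated knockout and untreated WT, under background in all of them. Hoxd8, a more anterior member, lay between 6.81 and 7.70 in all arrays. Hoxd9 and Hoxd1 were under background.

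**Figure D1:**
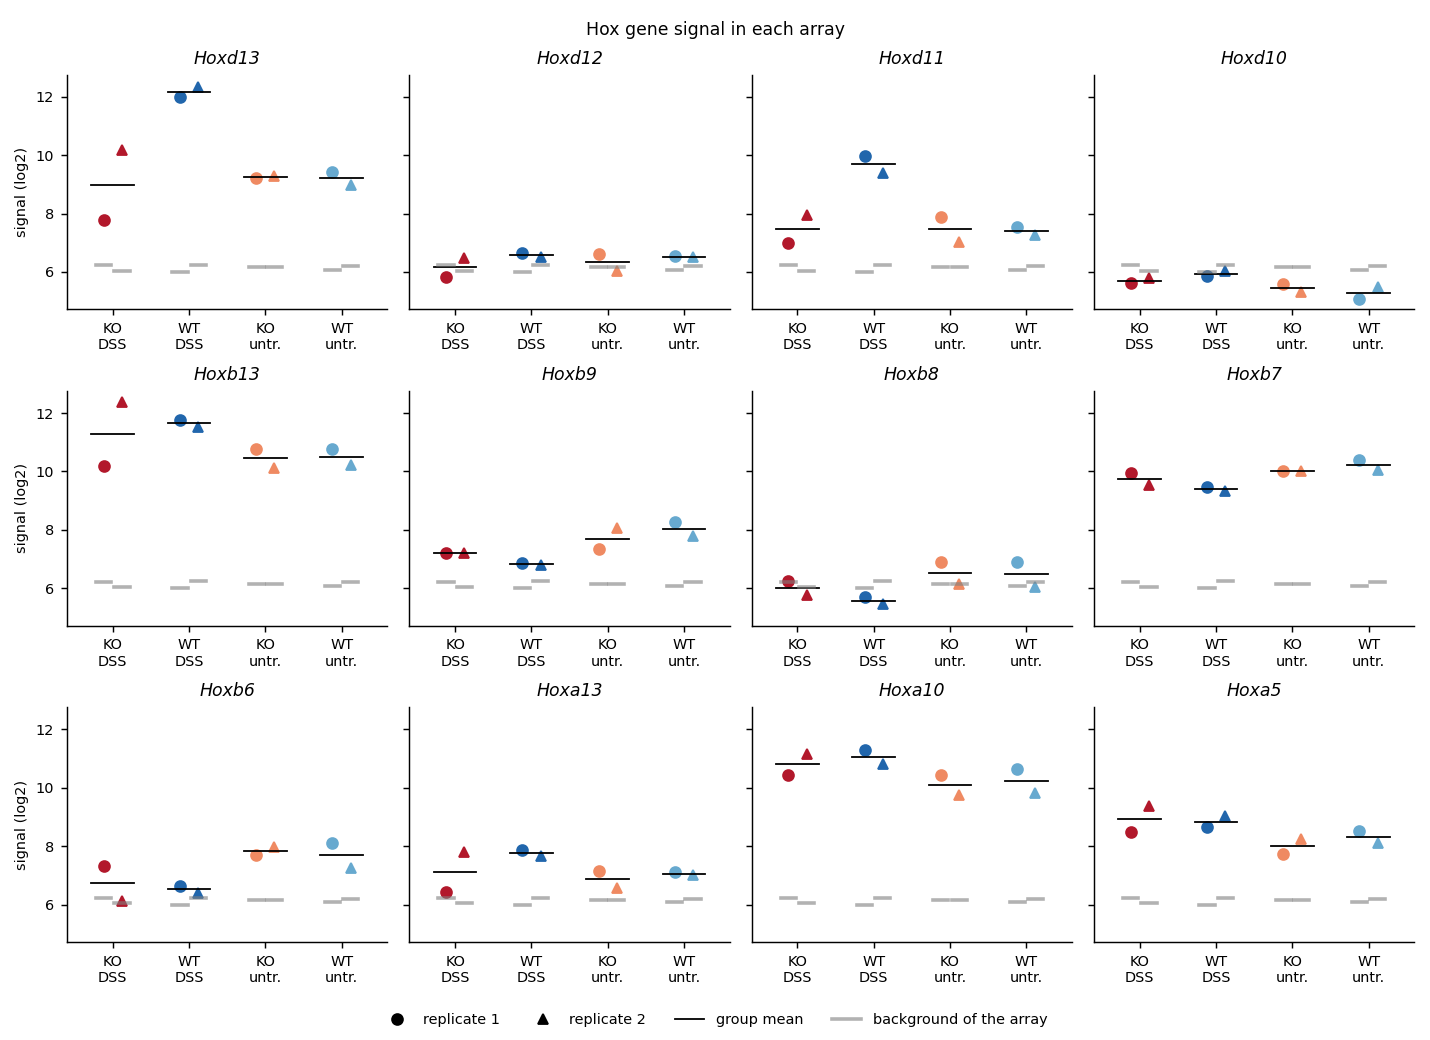
Deposited log2 signal (vertical axis) of 12 Hox genes in each array, with groups from left to right knockout DSS, WT DSS, knockout untreated and WT untreated. Points are arrays, lines are group means of 2 arrays and grey ticks are each array's background; Hoxd13 and Hoxd11 are highest in both WT arrays with DSS, and Hoxd13, Hoxb13 and Hoxa13 lie far apart in the 2 knockout arrays with DSS.

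The promoters of Hoxd13, Hoxd12 and Hoxd11 are shown because the outer pair of these neighbours changed together while the gene between them stayed near background. Each sequence holds 300 bases that span the annotated start, on the plus strand of GRCm38.p6, from RefSeq, with CG dinucleotides in capitals. Hoxd11 has a pair of annotated starts. The files do not say which start the array's probes follow, and name no genome build of their own.
Hoxd13, chr2:74667975-74668274: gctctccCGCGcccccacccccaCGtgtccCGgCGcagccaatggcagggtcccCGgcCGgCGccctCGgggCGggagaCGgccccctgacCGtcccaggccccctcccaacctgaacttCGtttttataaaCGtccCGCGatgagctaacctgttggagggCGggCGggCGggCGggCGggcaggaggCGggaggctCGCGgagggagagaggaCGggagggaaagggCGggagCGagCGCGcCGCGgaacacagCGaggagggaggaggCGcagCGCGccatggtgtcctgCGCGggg
Hoxd12, chr2:74674763-74675062: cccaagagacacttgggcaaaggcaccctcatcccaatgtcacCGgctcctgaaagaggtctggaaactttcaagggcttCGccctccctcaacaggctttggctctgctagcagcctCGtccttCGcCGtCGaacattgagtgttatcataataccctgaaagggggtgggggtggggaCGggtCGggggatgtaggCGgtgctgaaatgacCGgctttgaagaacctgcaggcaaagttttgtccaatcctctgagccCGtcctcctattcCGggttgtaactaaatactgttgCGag
Hoxd11, chr2:74682073-74682372: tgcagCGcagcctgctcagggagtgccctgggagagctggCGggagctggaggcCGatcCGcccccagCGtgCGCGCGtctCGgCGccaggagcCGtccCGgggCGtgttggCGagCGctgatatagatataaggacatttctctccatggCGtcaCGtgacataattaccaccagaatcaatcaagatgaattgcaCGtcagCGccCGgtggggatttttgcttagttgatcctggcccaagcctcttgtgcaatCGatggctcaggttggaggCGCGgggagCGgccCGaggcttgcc
Hoxd11, second start, chr2:74679308-74679607: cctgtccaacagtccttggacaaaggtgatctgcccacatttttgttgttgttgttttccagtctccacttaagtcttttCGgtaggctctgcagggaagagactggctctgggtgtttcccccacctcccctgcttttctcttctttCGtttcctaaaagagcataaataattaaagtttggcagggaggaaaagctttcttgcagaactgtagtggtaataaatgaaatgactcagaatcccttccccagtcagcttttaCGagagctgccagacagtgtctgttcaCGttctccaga

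These promoters differed in composition. The Hoxd13 window held 37 CG dinucleotides and 74.33% G+C, the Hoxd12 window 13 and 55%, and the Hoxd11 windows 25 and 62% at chr2:74682073-74682372 and 4 and 45.67% at the second start. Over 32851 mouse promoter windows of the same length the medians were 7 CG dinucleotides and 52.67% G+C, and over the 24 windows of the 22 Hox genes in the RefSeq table, CG counts ran from 4 to 45 with a median of 14.5. Motifs were searched on both strands: CCATAAA and CAATAAA, forms of the sites bound by posterior Hox and Cdx proteins, TGATNNAT, a form of the joint Hox and Pbx site, and TATAAA. Hoxd13 held TATAAA, at overlapping positions on both strands, which 13.62% of all promoter windows hold. The Hoxd11 window at chr2:74682073-74682372 held 1 TGATNNAT, which 8.846% of windows hold. CCATAAA and CAATAAA, held by 2.749% and 4.6% of windows, were not in the 4 windows printed. A match describes the letters only.

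WT mice given DSS differed from untreated WT mice in Hoxd13, Hoxd11 and Hoxb9. Hoxd13 rose by 2.96 ± 0.56 (7.76-fold, 95% interval 1.73 to 4.19, limma adjusted p = 0.0115), and Hoxd11 by 2.29 ± 0.37 (4.89-fold, 1.48 to 3.10, limma adjusted p = 0.0045). Hoxb9, a gene of the middle of cluster b, fell by 1.19 ± 0.28 (limma adjusted p = 0.0389). So 3 of 21 tested Hox genes passed, against 4.04% of all tested genes, 2 of them higher, against 2.91%, and 1 lower, against 1.12%. Without the filter on low signal, calls were also 2 higher and 1 lower, of the 33 genes with a row. Leaving out untreated WT replicate 1 or 2 or WT DSS replicate 2 ended the call of Hoxd13 (adjusted p = 0.0584, 0.107 and 0.0974), and leaving out untreated WT replicate 2 that of Hoxd11 (0.0517). The Hoxb9 call was lost without any of the 4 arrays it compares (differences of -0.96 to -1.42, adjusted p = 0.0867 to 0.315) and with the replicate number as a block (adjusted p = 0.0549).

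Knockout mice given DSS had lower Hoxd13 and Hoxd11 than WT mice given DSS. Hoxd13 fell by 3.19 ± 0.56 (9.12-fold, 95% interval -4.42 to -1.96, limma adjusted p = 0.0418) and Hoxd11 by 2.21 ± 0.37 (4.63-fold, -3.02 to -1.41, limma adjusted p = 0.0303). Hoxd12 and Hoxd10 had differences of -0.42 ± 0.28 and -0.25 ± 0.24 that did not pass (limma adjusted p = 0.637 and 0.755). The calls were 2 lower and 0 higher among 21, against 0.238% and 0.115% of all tested genes. At an unadjusted p under 0.05 they were the same 2 lower and 0 higher, against 6.18% and 4% of all genes. Groups did not overlap in 4 lower and 6 higher Hox genes, against 18.8% and 16.1% of all tested genes. This comparison uses the same WT DSS arrays as the one before, so the pair of results is not independent. Both calls were lost without untreated WT replicate 1 or 2 (adjusted p = 0.0760 for Hoxd13 and 0.0641 for Hoxd11 in each), without WT DSS replicate 1 (0.150 and 0.186) and without WT DSS replicate 2 (0.191 and 0.0554), while the differences stayed at -3.01 or beyond for Hoxd13 and at -1.93 or beyond for Hoxd11. Without knockout DSS replicate 1 the Hoxd11 difference was -1.73 (adjusted p = 0.159) and that of Hoxd13 -1.99 (0.0292).

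Markers of other cells moved with these comparisons. In WT with DSS 13 of 17 fibroblast genes, 7 of 12 endothelial genes and 5 of 9 immune genes rose, against 2.91% of all tested genes. Between knockout and WT with DSS 0 of these passed, with medians of 0.24, 0.21 and -0.04. Of all tested genes 0.115% passed there as higher and 0.238% as lower. All 7 tested genes of enteric neurons and glia had a difference above 0 there, 4 of them at an unadjusted p under 0.05, with a median of 0.73, and 0 passed. Smooth muscle markers averaged 12.83 and 10.97 in knockout with DSS, 11.07 and 10.54 in WT with DSS, 11.81 and 12.05 in untreated knockout, and 9.65 and 10.51 in untreated WT. Of these 14 genes 0 passed in either comparison, but all 14 had a difference above 0 in both, with a median of 0.78 for DSS in WT and 0.9996 for knockout against WT with DSS, where 5 had an unadjusted p under 0.05. The part of such cells in the Hoxd13 and Hoxd11 differences was not tested. In WT DSS replicate 1, the array with the highest pancreas mean, Hoxd13 measured 11.98. In WT DSS replicate 2, where that mean was 6.79, Hoxd13 measured 12.34. Cela1 and Clps of the pancreas list were above background in all 8 arrays, at 15.13 and 12.17 in WT DSS replicate 2.

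The other members of paralogue group 13 are Hoxb13 and Hoxa13, besides the undetected Hoxc13. Hoxb13, a distal colon and rectum marker, measured 10.17 and 12.39 in knockout with DSS, 11.77 and 11.52 in WT with DSS, 10.78 and 10.13 in untreated knockout, and 10.76 and 10.21 in untreated WT. Both WT arrays with DSS lay above both untreated WT arrays, while the knockout arrays with DSS held the highest value of the 8 and a value level with untreated arrays. Hoxa13, which acts in hindgut, genital and limb development, measured 6.42 and 7.80 in knockout with DSS, 7.87 and 7.65 in WT with DSS, 7.14 and 6.58 in untreated knockout, and 7.10 and 7.02 in untreated WT, again without overlap between DSS and untreated in WT. Knockout DSS replicate 1 was the lowest of its 8 values. With DSS in WT the differences were 1.16 ± 0.55 for Hoxb13 (limma adjusted p = 0.343) and 0.71 ± 0.38 for Hoxa13 (limma adjusted p = 0.429), and neither passed. Hoxb13 passed when either knockout DSS array was left out of the fit (1.16, adjusted p = 0.0402 without replicate 1). Knockout against WT with DSS gave -0.36 ± 0.55 and -0.65 ± 0.38 (adjusted p = 0.857 and 0.588). Without knockout DSS replicate 1 these values turned to 0.75 and 0.03.

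In cluster a the brightest gene was Hoxa10, which acts in uterus and limb, at 10.43 and 11.17 in knockout with DSS, 11.31 and 10.80 in WT with DSS, 10.44 and 9.76 in untreated knockout, and 10.65 and 9.83 in untreated WT. Its WT arrays with DSS lay above the untreated ones without overlap, with a difference of 0.82 ± 0.36 (limma adjusted p = 0.307). Hoxa5, known for roles in lung and gut development, measured 8.49 and 9.39 in knockout with DSS, 8.65 and 9.02 in WT with DSS, 7.73 and 8.25 in untreated knockout, and 8.53 and 8.12 in untreated WT. Its differences with DSS were 0.95 ± 0.33 in knockout (limma adjusted p = 0.315) and 0.51 ± 0.33 in WT (limma adjusted p = 0.532). Hoxa3, an anterior member, lay between 9.31 and 10.26 in all arrays, and Hoxa2 between 6.20 and 7.003, with WT DSS differences of -0.10 ± 0.28 and 0.04 ± 0.26. Hoxa11 stayed between 4.12 and 5.13, under background, while its antisense transcript Hoxa11os, chosen after its values were seen, lay between 8.09 and 9.38.

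Of the middle and anterior genes of cluster b, Hoxb9 alone passed in WT with DSS, and 6 of the 8 with a row were lower there without overlap, against 24.1% of all tested genes. Hoxb9, which acts in the thoracic skeleton, measured 7.20 and 7.20 in knockout with DSS, 6.88 and 6.79 in WT with DSS, 7.33 and 8.07 in untreated knockout, and 8.25 and 7.80 in untreated WT. Both WT arrays with DSS were its lowest and the knockout arrays with DSS came next, below all 4 untreated arrays. Hoxb8, its neighbour, measured 6.23 and 5.78 in knockout with DSS, 5.69 and 5.45 in WT with DSS, 6.91 and 6.13 in untreated knockout, and 6.91 and 6.05 in untreated WT. Many of these Hoxb8 values were near or under background, and its knockout groups overlapped.

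Hoxb7, a gene of the middle of the cluster, measured 9.95 and 9.54 in knockout with DSS, 9.48 and 9.33 in WT with DSS, 10.03 and 10.01 in untreated knockout, and 10.40 and 10.06 in untreated WT. All 4 arrays with DSS lay below all 4 untreated ones. Hoxb6 measured 7.34 and 6.13 in knockout with DSS, 6.64 and 6.41 in WT with DSS, 7.70 and 7.99 in untreated knockout, and 8.12 and 7.26 in untreated WT. Of its arrays with DSS, knockout replicate 1 alone reached above the lowest untreated array. Hoxb5, next to it, measured 5.59 and 5.44 in knockout with DSS, 5.06 and 5.04 in WT with DSS, 5.55 and 5.39 in untreated knockout, and 5.03 and 5.82 in untreated WT, under background in every array and with overlap in WT.

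With DSS in WT the differences were -1.16 ± 0.39 for Hoxb6, -0.90 ± 0.34 for Hoxb8, -0.82 ± 0.24 for Hoxb7 and -0.67 ± 0.25 for Hoxb2, a hindbrain patterning gene. None of these passed (limma adjusted p = 0.145, 0.213, 0.0968 and 0.200). Hoxb6 passed when either knockout DSS array was left out of the fit (adjusted p = 0.0461 without replicate 1). In knockout with DSS against knockout untreated, Hoxb6 had a difference of -1.11 ± 0.39 (limma adjusted p = 0.319) and Hoxb9 of -0.50 ± 0.28 (limma adjusted p = 0.663). Groups did not overlap there in 5 lower Hox genes, these 2 among them, and 3 higher ones, against 22% and 16.8% of all tested genes.

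Set out by paralogue number, the DSS differences in WT changed sign along cluster b, where Hoxb13 was above 0 and 7 of the 8 genes of groups 1 to 9 below it. The other clusters did not show this over their genes with a row. In cluster a 6 of 8 genes were above 0, Hoxa5 included, and in cluster d 6 of 7. Of groups 1 to 9 in cluster d, however, Hoxd1 and Hoxd9 were under background in every array, and Hoxd8 had a difference of -0.06 ± 0.26. In the mostly undetected cluster c 7 of 9 were below 0. Over all 4 clusters, 9 of the 12 genes of groups 10 to 13 with a row had a difference above 0, with a median of 0.56. Of these 12, Hoxa11, Hoxc10, Hoxc11, Hoxc12, Hoxc13 and Hoxd10 were under background in every array. Among the genes of groups 1 to 9, 14 of 21 were below 0, with a median of -0.16, and the median within cluster b was -0.75. The median over all genes with a row was -0.03. Groups did not overlap in 6 of the 7 tested genes of groups 10 to 13, Hoxd10 among them, all higher with DSS, against 20.3% of all tested genes. The same held in 6 of the 7 tested genes of groups 1 to 9 of cluster b, all lower with DSS, against 24.1%. For DSS in knockout these counts were 1 higher, against 16.8%, and 4 lower, against 22%. In knockout against WT with DSS, which shares the WT DSS arrays, 11 of the 12 genes of groups 10 to 13 were below 0, with a median of -0.25, and 7 of the 8 cluster b genes of groups 1 to 9 were above 0, with a median of 0.27. Genes of a cluster lie next to each other and were measured in the same arrays, so these counts are a description.

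**Figure D2:**
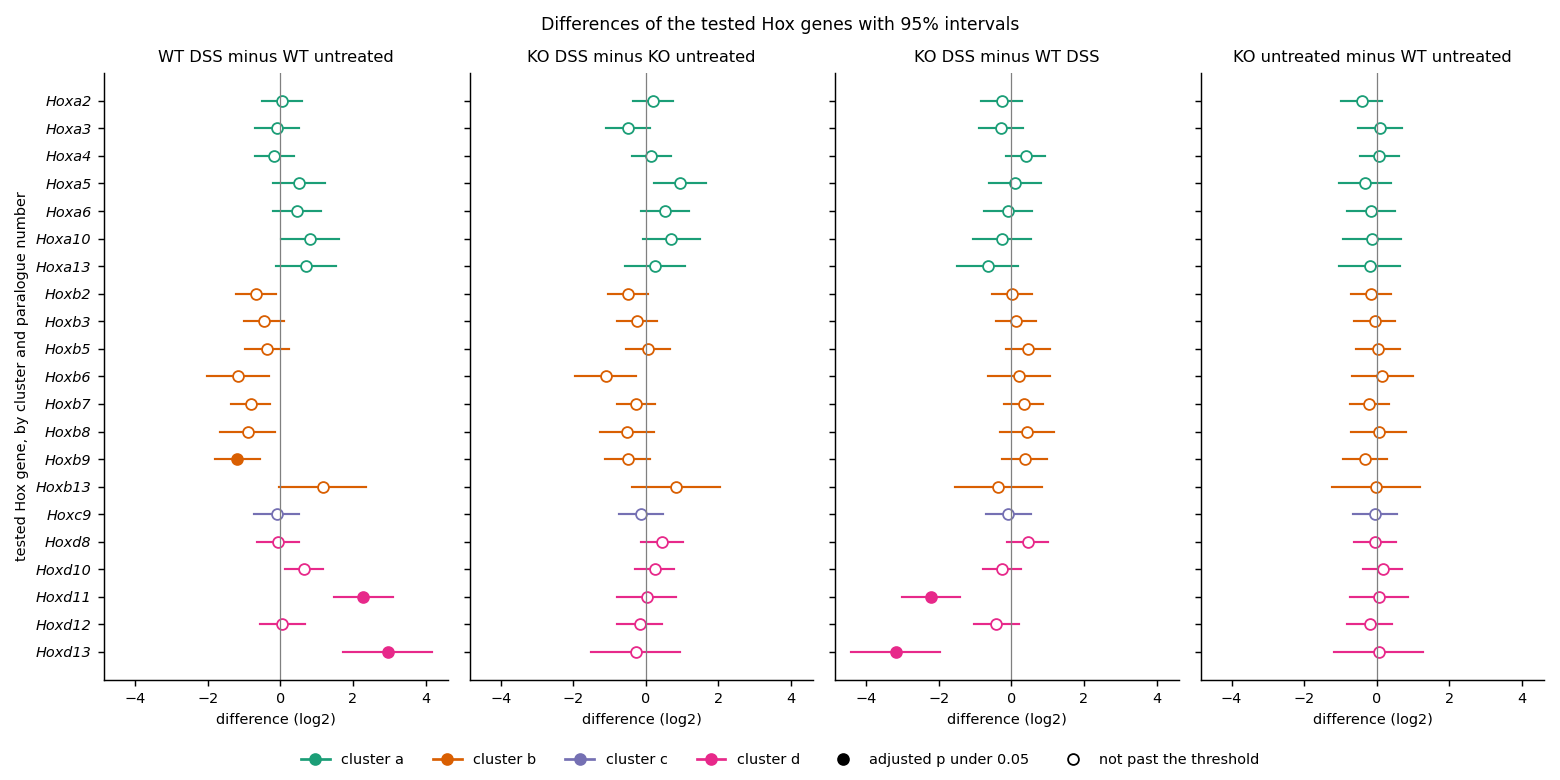
Log2 difference (horizontal axis) with its 95% interval for the 21 tested Hox genes, ordered by cluster and paralogue number, in 4 comparisons. Filled points passed limma's adjusted threshold: Hoxd13 and Hoxd11 in WT with DSS against WT untreated and in knockout against WT with DSS, and Hoxb9 in the first of these.

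In knockout mice no Hox gene passed between DSS and untreated. The count was 0 of 21, against 0.931% of all tested genes, and at an unadjusted p under 0.05 it was 1 higher (Hoxa5) and 1 lower (Hoxb6), against 4.57% and 4.95%. Hoxd13 had a difference of -0.28 ± 0.56 (95% interval -1.51 to 0.95, limma adjusted p = 0.935), Hoxd11 of 0.02 ± 0.37 (-0.79 to 0.83, 0.995), Hoxb13 of 0.83 ± 0.55 (-0.37 to 2.03, 0.731) and Hoxa13 of 0.25 ± 0.38 (-0.59 to 1.09, 0.909). Leaving out knockout DSS replicate 2 gave Hoxd13 a difference of -1.48 (adjusted p = 0.0328), and leaving out replicate 1 gave 0.91 (adjusted p = 0.378), so the sign in knockout depended on a single array.

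The 2 knockout arrays with DSS stood far apart in several Hox genes. Replicate 2 exceeded replicate 1 by 2.39 in Hoxd13, 2.22 in Hoxb13, 1.37 in Hoxa13, 0.95 in Hoxd11, 0.90 in Hoxa5, 0.83 in Hoxa6, 0.75 in Hoxa10 and 0.65 in Hoxd12. Hoxb6 went the other way, at -1.21, and the posterior gene Hoxd10 and Hoxb9 differed by 0.17 and 0.01. Of the 21 tested Hox genes 4 differed by over 1 between these replicates, against 5.81% of all tested genes, and in each of the other 3 groups 0 of 21 did. The median size of the difference in knockout with DSS was 0.59 over the Hox genes and 0.33 over all tested genes. It was 0.45 and 0.24 in untreated WT, 0.28 and 0.20 in untreated knockout, and 0.22 and 0.30 in WT with DSS. A Hox median above that of all tested genes was thus not particular to knockout with DSS.

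The differences between those knockout arrays ran along with the DSS differences in WT, which use none of the same arrays. Of 21 tested Hox genes, 18 (85.7%) had the same sign in both, against 47% of all tested genes. Some of the WT differences were close to 0, such as 0.05 for Hoxd12 and -0.06 for Hoxd8. Hoxb9 did not share its sign, at -1.19 in WT and 0.01 between the knockout arrays. Neighbouring genes measured in the same arrays are not independent, so this count is a description. Replicate 1 also differed from replicate 2 in the transcripts of other cells: the fibroblast mean was 11.24 against 10.21, the smooth muscle mean 12.83 against 10.97 and the exocrine pancreas mean 7.81 against 6.71. Cela1 (14.32 against 15.39) and Clps (11.09 against 12.73) of the pancreas list were lower in replicate 1. Genes of the proximal colon did not run one way: Osr2 was 12.65 in replicate 1 and 10.53 in replicate 2, Ang4 was 10.04 and 14.41, and the mean of the 9 genes was 12.67 and 12.95. Their part in the Hox spread was not tested.

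**Figure D3:**
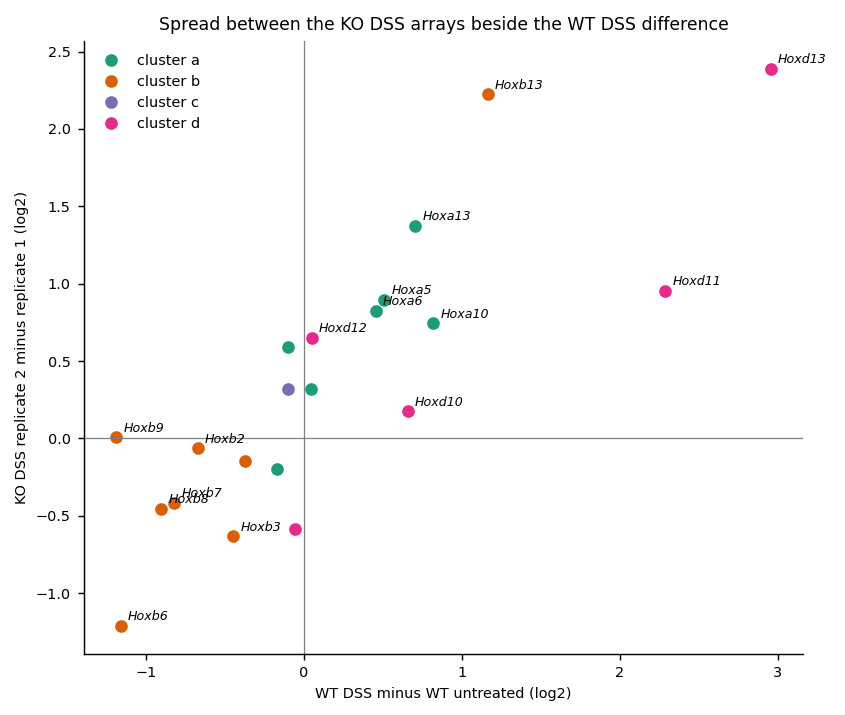
Each point is a tested Hox gene, with the log2 difference of WT DSS minus WT untreated on the horizontal axis and that of knockout DSS replicate 2 minus replicate 1 on the vertical axis. The axes share no array; Hoxd13, Hoxb13 and Hoxa13 are the genes highest in replicate 2, and Hoxb6 is the lowest.

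Without DSS the genotypes were not told apart by any Hox gene. The count was 0 of 21, against 0.392% of all tested genes, and at an unadjusted p under 0.05 it was also 0, against 6.32%. The differences ran from -0.42 to 0.16, with 8 genes above 0 and 13 below, and a median of -0.05. For Hoxd13 the 95% interval of -1.18 to 1.28 leaves room for differences of more than 1 log2 unit either way.

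The genotype difference in the response to DSS, tested as an interaction, passed for 0 of 21 Hox genes, against 0.0769% of all tested genes. Hoxd13 and Hoxd11 were the 2 lower genes at an unadjusted p under 0.05, where 3.57% of all genes were lower. Hoxd13 had an interaction of -3.24 ± 0.79 (limma adjusted p = 0.323) and Hoxd11 of -2.27 ± 0.52 (limma adjusted p = 0.284). A DSS effect that differs between the genotypes is therefore not shown for either gene. The Hoxd13 value was -4.43 (adjusted p = 0.000887) without knockout DSS replicate 2 and -2.04 (0.101) without replicate 1.

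Averaged over treatment, 0 of 21 Hox genes passed between the genotypes, against 0.677% of all tested genes. At an unadjusted p under 0.05, 0 were higher and 2 lower, against 5.42% and 5.54%. The lower genes were Hoxd13 (-1.57 ± 0.40, limma adjusted p = 0.115) and Hoxd11 (-1.08 ± 0.26, limma adjusted p = 0.101). Both passed without knockout DSS replicate 2, at -2.17 (adjusted p = 0.00076) and -1.32 (0.0204), and neither passed without replicate 1, at -0.97 (0.0598) and -0.84 (0.208).

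Averaged over genotype, Hoxd11 was higher with DSS by 1.16 ± 0.26 (limma adjusted p = 0.0239). Hoxb9 fell by 0.84 ± 0.20 (limma adjusted p = 0.0296), and Hoxb6 by 1.14 ± 0.27 (limma adjusted p = 0.0323). So 1 gene was higher and 2 were lower, against 3.47% and 2.05% of all tested genes. All 4 arrays with DSS lay below all 4 untreated ones in 3 Hox genes (Hoxb9, Hoxb7 and Hoxb2), against 5.67% of all tested genes, and above them in 1 (Hoxd10), against 4.76%. Hoxd10 was under background in every array. The Hoxd11 average joins 2.29 in WT and 0.02 in knockout, while Hoxb6 had -1.16 in WT and -1.11 in knockout. Hoxd11 lost its call without untreated WT replicate 1 or 2, WT DSS replicate 1 or untreated knockout replicate 2 (adjusted p = 0.0634 to 0.105). Hoxb9 lost it without knockout DSS replicate 1, either WT DSS array, untreated knockout replicate 2 or untreated WT replicate 1 (0.0595 to 0.151). Hoxb6 lost it without knockout DSS replicate 2, either WT DSS array, either untreated knockout array or untreated WT replicate 1 (0.0528 to 0.149). Without knockout DSS replicate 1 there were 6 calls, with Hoxd13 (1.93), Hoxb13 (1.55), Hoxd11 (1.39), Hoxa5 (0.95) and Hoxa13 (0.82) higher and Hoxb6 (-1.44) lower.

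Other genes that vary along the colon changed with DSS as well. Among 9 tested genes of the proximal colon, 4 fell in WT with DSS and 0 rose, against 1.12% and 2.91% of all tested genes. Such falls were not confined to this list. Of 4 tested genes of a small intestine list 1 fell in WT with DSS and 2 in knockout with DSS. In knockout 0.931% of all tested genes passed in either direction. Sis, of that list, averaged 6.57 in knockout and 6.60 in WT with DSS, against 8.92 and 8.57 untreated. Of 10 epithelial markers 1 fell in WT with DSS. Slc10a2, the bile acid uptake transporter, measured 10.01 and 10.26 in knockout with DSS, 11.14 and 10.76 in WT with DSS, 12.84 and 12.63 in untreated knockout, and 12.84 and 13.11 in untreated WT. All arrays with DSS lay below all untreated ones, by -2.61 ± 0.24 in knockout (limma adjusted p = 0.000677) and -2.02 ± 0.24 in WT (0.000664). Osr2, a zinc finger factor of the proximal colon, measured 12.65 and 10.53 in knockout with DSS, 10.99 and 11.58 in WT with DSS, 13.23 and 13.91 in untreated knockout, and 13.76 and 14.05 in untreated WT. It fell by 2.62 ± 0.53 in WT (limma adjusted p = 0.0178) and had a difference of -1.98 ± 0.53 in knockout that did not pass (0.158).

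Fabp6, an intracellular bile acid carrier, fell by 3.24 ± 0.39 in WT (limma adjusted p = 0.000714), and Fabp2, a fatty acid carrier, by 1.19 ± 0.29 (limma adjusted p = 0.0477). Fabp6 measured 5.87 in WT DSS replicate 1, under background, so the size of its fall is uncertain. In knockout, Slc10a2 alone of the 9 proximal genes passed, against 0.931% of all tested genes. Among 6 tested genes of the distal colon list 1 rose in WT with DSS, the water channel Aqp8, by 1.34 ± 0.33 (limma adjusted p = 0.0462), against 2.91% of all tested genes. Aqp8 measured 12.78 and 13.17 in knockout with DSS, 12.49 and 12.18 in WT with DSS, 12.71 and 13.39 in untreated knockout, and 10.57 and 11.42 in untreated WT. Both untreated WT arrays were its lowest, and it was also higher in untreated knockout than in untreated WT, by 2.06 ± 0.33 (limma adjusted p = 0.0292), where no Hox gene passed.

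Between knockout and WT with DSS, where Hoxd13 and Hoxd11 were lower, 0 of 9 proximal and 0 of 6 distal genes passed. Of all tested genes 0.115% passed as higher and 0.238% as lower. At an unadjusted p under 0.05, 2 proximal genes were higher and 1 lower, and 0 distal genes were higher and 1 lower. Of all tested genes 4% were higher and 6.18% lower. The proximal gene Aqp4 measured 15.57 and 15.94 in knockout with DSS against 14.16 and 14.63 in WT with DSS. The distal gene Fxyd4 measured 8.52 and 8.78 against 9.75 and 9.80. Osr2 had a difference of 0.31 ± 0.53 there (limma adjusted p = 0.878). The mean of the 9 proximal genes was 12.67 and 12.95 in knockout with DSS and 13.14 and 12.69 in WT with DSS, with overlap. Ang4, a member of this list, measured 10.04 and 14.41 in knockout with DSS and 16.83 and 11.74 in WT with DSS. Its spread weighs on these means. The mean of the 7 distal genes with a row was 10.20 and 10.67 in knockout with DSS and 10.68 and 10.72 in WT with DSS. Whether the groups' cells came from different lengths of colon was not tested.

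**Figure D4:**
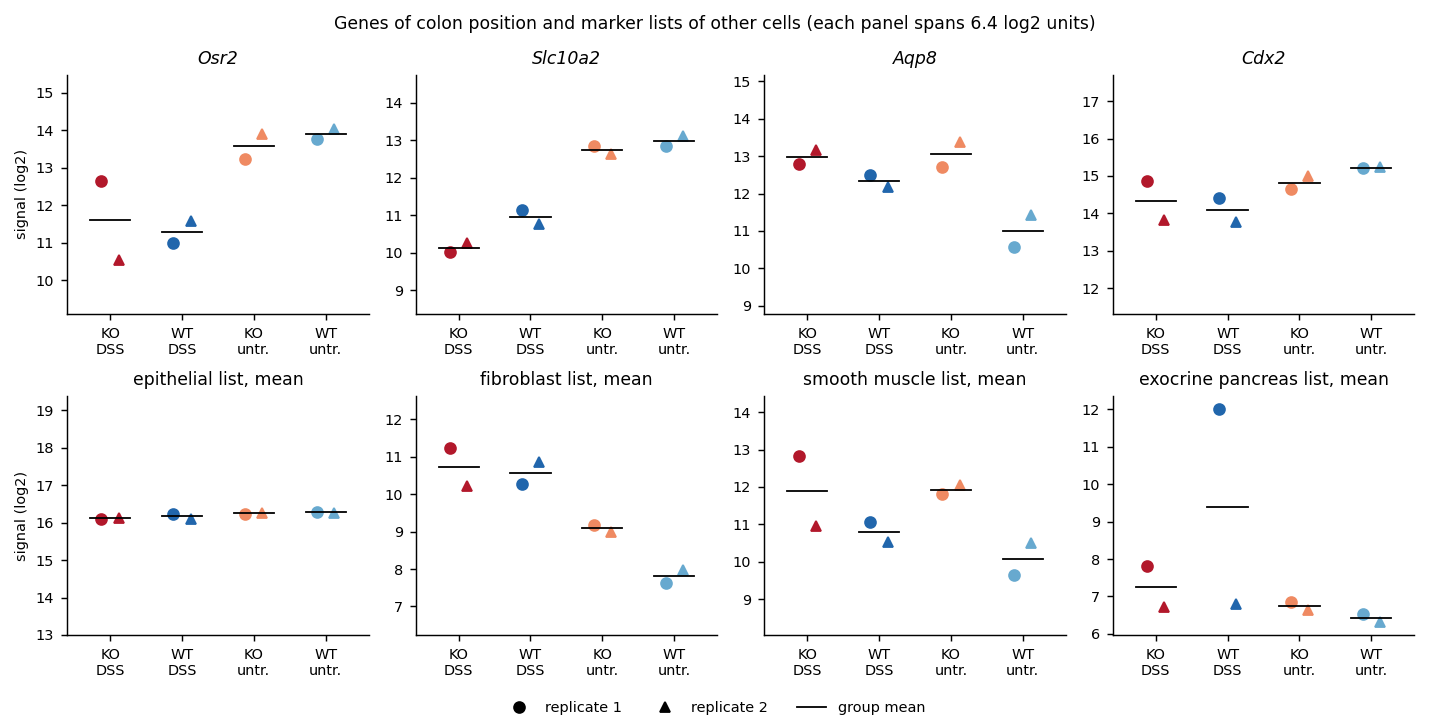
Deposited log2 signal (vertical axis, each panel spanning 6.4 units) of Osr2, Slc10a2, Aqp8 and Cdx2 and the means of 4 cell type lists, per array, with groups from left to right knockout DSS, WT DSS, knockout untreated and WT untreated. Slc10a2 is lower in all 4 arrays with DSS, the epithelial mean stays between 16.10 and 16.28, and the pancreas mean reaches 12.01 in WT DSS replicate 1.

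Few of the factors that act with or upstream of Hox genes passed a test. Cdx2 measured 14.85 and 13.82 in knockout with DSS, 14.41 and 13.78 in WT with DSS, 14.64 and 14.99 in untreated knockout, and 15.21 and 15.24 in untreated WT. Its WT difference with DSS was -1.13 ± 0.34 (limma adjusted p = 0.104), and that of Cdx1, its close relative, -0.37 ± 0.26 (limma adjusted p = 0.573). The other 4 genes of this family (Cdx4, Pdx1, Gsx1 and Gsx2) lay under background in all arrays. Of 6 tested cofactors of the Pbx, Meis and Pknox families 0 passed in WT with DSS, in knockout with DSS or between the genotypes with DSS. Few of all tested genes passed either, 4.04% in WT with DSS and 0.931% in knockout with DSS. Between the genotypes with DSS 0.115% of them were higher and 0.238% lower. Meis1 and Meis2 had WT differences of 0.92 ± 0.34 and 0.88 ± 0.32 (limma adjusted p = 0.200 and 0.199).

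Of 16 chromatin regulators that keep Hox genes on or off, 1 rose in WT with DSS, the Polycomb methyltransferase Ezh1 (0.9998 ± 0.23, limma adjusted p = 0.0310), and 0 fell, against 2.91% and 1.12% of all tested genes. Kdm6a, an X-linked histone demethylase, fell by 1.32 ± 0.24 in knockout with DSS (limma adjusted p = 0.0302). It lay between 10.41 and 11.02 in the arrays with DSS of both genotypes and between 11.72 and 11.97 in the untreated arrays. The Y-linked genes divided the arrays in the same way, so DSS and that division cannot be told apart for Kdm6a. Between the genotypes with DSS 0 of the 16 regulators passed, where 0.115% of all tested genes were higher and 0.238% lower. Of 8 tested genes of retinoic acid, a signal that sets Hox expression in embryos, 1 rose in WT with DSS and 1 fell, against 2.91% and 1.12%. Aldh1a3, a synthesising enzyme, rose in WT with DSS (limma adjusted p = 0.0478). It was not above background in either untreated WT array, and the rise, from the mean signal with DSS over the untreated arrays' background, was at least 1.83-fold. Another such enzyme, Aldh1a1, fell by 1.35 ± 0.28 in WT (limma adjusted p = 0.0177) and by 1.78 ± 0.28 in knockout (limma adjusted p = 0.0147). Of the 7 tested genes next to the clusters that are no Hox genes 0 passed in these 3 comparisons. Of all tested genes 4.04% passed in WT with DSS and 0.931% in knockout with DSS. Lnpk and Mtx2, which flank cluster d, had WT differences with DSS of 0.80 ± 0.31 (limma adjusted p = 0.227) and -0.11 ± 0.25 (limma adjusted p = 0.898).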

How the data were processed

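RNA of colon epithelial cells from 8 samples was hybridised to 1 Affymetrix array each. The authors deposited log2 signals produced in Affymetrix Expression Console, as named in the submitters' processing notes. Its normalization settings are not given in those sources. Values were used unchanged. Of 28846 rows, 6640 were controls, 19572 had 1 gene symbol, 0 had several and 2634 had none. Symbols came from the platform annotation and all matched GRCm38.p6 by Entrez number. Where a gene had more than 1 row (55 genes, 0 of them Hox genes), its brightest row stood for it. Genes with a mean below 5.15, the lowest 33.3%, were left out.

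Using limma 3.58.1 under R 4.3.3, a mean per group was fitted over 8 arrays (4 residual and 7.27 prior degrees of freedom), for 7 comparisons, with two-sided moderated tests and Benjamini-Hochberg adjustment. The fit was tested on simulated data. Alternatives covered the filter, row choice, scaling, variance model, array weights, arrays in the fit, a replicate block and arrays left out. The number of arrays limits the precision.

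Values in every array were given for Hox genes past the threshold in any comparison, for paralogue group 13, for neighbours of called genes and for the brightest gene of each cluster, and other Hox genes by ranges and counts or where they were extreme or above background. The Hox genes and all gene lists were chosen with earlier results of these data known.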

Additional observations from a re-analysis of the deposited data

How the results depend on the processing

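Every Hox call of the report depended on a single array somewhere. With single arrays left out, the number of Hox genes called ranged from 0 to 2 for knockout DSS against WT DSS (2 with all arrays), 0 to 5 for WT DSS against WT untreated (3), 0 to 1 for knockout DSS against knockout untreated (0), 0 to 1 for the interaction (0), 0 to 2 for genotype averaged (0) and 0 to 6 for DSS averaged (3). For knockout untreated against WT untreated it was 0 throughout. Knockout DSS against WT DSS gave 1 call with quantile normalization, 1 with trend and robust moderation, and 0 with array weights, and the cause was not tested. Hoxd13 had an adjusted p of 0.0614, 0.132 and 0.0516 under these settings, and Hoxd11 of 0.105 with array weights. In WT DSS against WT untreated, Hoxd13 had 0.0527 with trend and robust moderation and Hoxb9 0.0564 with array weights. With WT DSS replicate 1 and knockout DSS replicate 1 left out together, the arrays with the highest pancreas transcripts, counts were 1 for knockout DSS against WT DSS, 2 for knockout DSS against knockout untreated, 1 for genotype averaged and 7 for DSS averaged.

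Signs turned only in differences that had not passed. Hoxa13 ranged from -1.34 to 0.0348 and Hoxb13 from -1.48 to 0.75 in knockout DSS against WT DSS with single arrays left out. They were 0.14 and 0.88 without both arrays with the highest pancreas means. In knockout DSS against knockout untreated the ranges were -1.48 to 0.91 for Hoxd13 (0.91 also without both arrays), -0.46 to 0.50 for Hoxd11 (-0.013 with array medians set equal), -0.44 to 0.94 for Hoxa13 and -0.29 to 1.94 for Hoxb13. Of 662 single-gene values under an alternative, 583 kept direction and side of the threshold, 42 lost a call, 25 gained one and 12 turned.

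Whether replicate numbers pair the samples cannot be decided with 2 arrays per group. Deviations from the group means of same-numbered arrays correlated between -0.25 and 0.28 over genes, highest between WT DSS and WT untreated. With the replicate number as a block, the number of Hox genes called was 2 for knockout DSS against WT DSS, 2 for WT DSS against WT untreated and 4 for DSS averaged, and 0 for the other comparisons.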
